A study of Capra hircus with 10 samples.

Results

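ZBTB, ZSCAN and ZKSCAN genes encode DNA-binding proteins with C2H2 zinc fingers, and their expression was compared here between luteal phase and follicular phase ovaries of Anhui white goats. This set of families was chosen with earlier results of these data known. Its members are the protein-coding genes whose symbol is ZBTB, ZSCAN or ZKSCAN followed by a digit. This rule took in 59 of the 20587 gene symbols in the table. Of these, 41 are ZBTB genes, 13 are ZSCAN genes and 4 are ZKSCAN genes. The remaining symbol, ZBTB8OS, lies beside ZBTB8A and encodes archease, a cofactor of the tRNA ligase complex and not a zinc finger protein, so it is described apart. Ovaries came from a slaughterhouse, 5 per phase. A library free of most ribosomal RNA was made and sequenced for each whole ovary, without pooling. The labels do not give the ages of the goats or say whether the ovaries came from separate goats, so p-values measure the spread between these ovaries.

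All of these families use C2H2 zinc fingers to bind DNA and differ in the domain at the other end of the protein. ZBTB proteins carry a BTB (POZ) domain, through which they dimerize and recruit corepressors such as BCOR, and many act as transcriptional repressors in the choice of cell fate. ZSCAN proteins carry a SCAN domain, a dimerization domain of mammals and other vertebrates, and ZKSCAN proteins add a KRAB domain, which recruits TRIM28 and histone methylation to silence chromatin.

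Levels are given as FPKM, the number of sequenced fragments scaled to transcript length and to the fragments mapped in the library, summed over the transcripts of a gene. Differences are luteal minus follicular on log2(FPKM + 0.1), with a standard error (SE) and a two-sided limma p with Benjamini-Hochberg adjustment. The adjustment took in all 15359 genes that passed a filter on low values (FPKM 0.1 or more in 5 or more ovaries). An adjusted p under 0.05 is a call. FPKM summed to between 492324 and 540124 per follicular phase ovary and between 452508 and 503276 per luteal phase ovary over all transcripts. Read counts were not used here, so the depth behind each value is unknown.

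The phase labels were checked against marker genes. All 6 of the corpus luteum markers in the table were higher in the luteal phase, and their summed FPKM ran from 5905 to 8076 there and from 131 to 183 in the follicular phase. Of 7 granulosa cell markers 4 were lower in the luteal phase (summed FPKM 115 to 655, against 244 to 1086), as were 4 of 8 oocyte markers (8.61 to 20.1, against 16.5 to 47.4). Endothelial markers were higher in the luteal phase for 5 of 6 genes (207 to 258, against 106 to 128). Of 6 smooth muscle and pericyte markers 5 were lower and 1 was higher (648 to 1060, against 1220 to 1519). Ovarian stroma markers went both ways, with 2 lower and 3 higher of 8 (3390 to 5680, against 2659 to 3774), and 2 of 9 leukocyte markers were higher (51.8 to 66.7, against 31.7 to 72.7). For comparison, 27.8% of all genes tested were lower and 15.9% higher. The sums of the granulosa cell, oocyte, stroma and leukocyte markers overlapped between the phases. The erythrocyte markers in the table, ALAS2 and AHSP, summed to at most 0.746 FPKM in any ovary, and ALAS2 was below the filter. The part of these cell types in the results on zinc finger genes was not tested, and in whole ovaries fewer cells of a type cannot be told apart from less RNA per cell.

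More of these genes were lower than higher in the luteal phase, and ZBTB7C, which was higher, had the largest difference. Of the 59 genes, 55 passed the filter on low values, and 32 of those were called, where 43.7% of all genes tested were called. In the luteal phase 28 were lower (50.9%) and 4 were higher (7.27%), against 27.8% lower and 15.9% higher among all genes tested. When each ovary was shifted to a common median, 19.9% of all genes were lower and 18.9% were higher, and 25 and 4 of the 55 genes. The median log2 difference of the 55 genes was -0.38, against -0.14 over all genes tested. By unadjusted p under 0.05, 39 were lower and 5 were higher (70.9% and 9.09%, against 33.8% and 18.4% of all genes). By adjusted p, 21 of the 55 genes were called lower without overlap between the phases (38.2%, against 16.8% of all genes tested), and 4 were called higher without overlap (7.27%, against 11.1%). Without ZBTB8OS the higher genes were 3, namely ZBTB7C, ZBTB46 and ZBTB38.

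**Figure D1:**
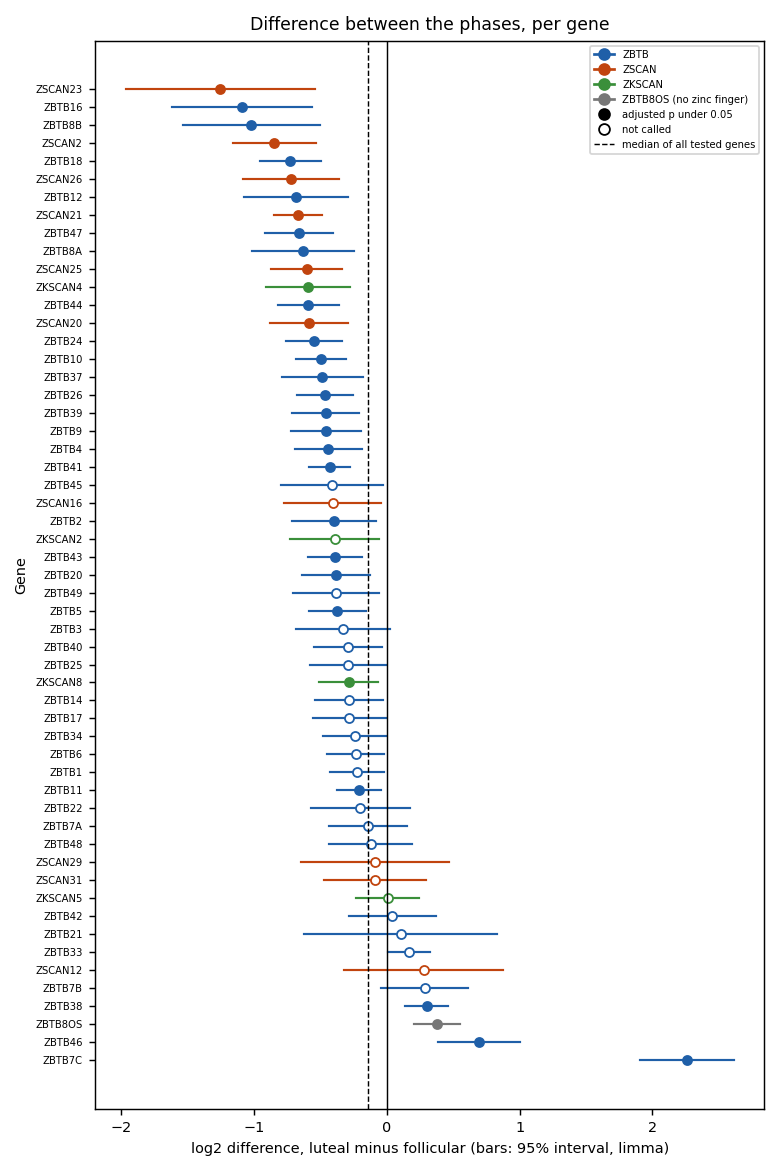
Log2 difference between the phases (x axis, luteal minus follicular) with its 95% interval from limma for each of the 55 tested genes (y axis), coloured by family, filled where the adjusted p was under 0.05. Most points lie left of 0, down to -1.25 for ZSCAN23, ZBTB7C stands alone at 2.26 with ZBTB46 next at 0.70, and the dashed line is the median of all tested genes, -0.14.

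By family, 40 ZBTB, 10 ZSCAN and 4 ZKSCAN genes were tested. Among the ZBTB genes 20 were lower (50%) and 3 higher, with a median log2 difference of -0.38. Of the ZSCAN genes 6 were lower, with a median of -0.59, and 0 were higher by limma, also at an unadjusted p under 0.05. Of the ZKSCAN genes 2 were lower (median -0.34) and 0 were higher, likewise with 0 at an unadjusted p under 0.05. The call for ZKSCAN8 was lost under all 3 other scalings described below. Among all genes tested 27.8% were lower and 15.9% higher, or 33.8% and 18.4% by unadjusted p. For context, the 242 tested genes with a ZNF symbol, the bulk of the other C2H2 zinc finger genes, had 154 lower (63.6%) and 5 higher (2.07%), with a median of -0.39. The share of lower genes among the ZBTB, ZSCAN and ZKSCAN genes thus lay between that of all genes and that of ZNF genes, and no test was made of these differences between lists.

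Summed over all 59 genes, FPKM was 390 ± 18.8 in the follicular phase and 316 ± 9.16 in the luteal phase (SD, n = 5 each). The lowest follicular phase ovary, at 367, lay above the highest luteal phase ovary, at 323. These sums use FPKM as deposited. Over all transcripts FPKM also summed lower in the luteal phase, from 452508 to 503276 against 492324 to 540124, with overlap. ZBTB genes summed to 259 ± 13.3 and 217 ± 7.13, ZSCAN genes to 96.9 ± 6.12 and 63.7 ± 4.86, and ZKSCAN genes to 19.1 ± 1.60 and 15.9 ± 1.47, where only the ZKSCAN sums overlapped. One gene, ZSCAN21, held most of the ZSCAN sum, and without it the ZSCAN genes summed to 33.2 ± 4.90 and 23.4 ± 0.994.

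Most of these genes were expressed at low to moderate levels. The mean FPKM over the 10 ovaries was at least 10 for 11 genes, between 1 and 10 for 42, and under 1 for 6. The median of the tested genes was 4.28, against 6.81 over all genes tested. Below the filter were ZBTB32, ZSCAN9, ZSCAN10 and ZSCAN22. ZBTB32, a regulator of lymphocytes, was at 0.0365, 0.0239, 0.00792, 0.0176 and 0.0181 in the follicular phase and at 0.0107, 0.00531, 0.0122, 0.0122 and 0.0312 in the luteal phase. ZSCAN10, known from embryonic stem cells, was listed at 0 in 5 ovaries and reached at most 0.0665. ZSCAN9 was listed at 0 in every luteal phase ovary and in 2 follicular phase ovaries, with a highest value of 0.0494, and ZSCAN22 ran from 0.0301 to 0.148. ZKSCAN3, a repressor of autophagy genes, was not analysed here.

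**Figure D2:**
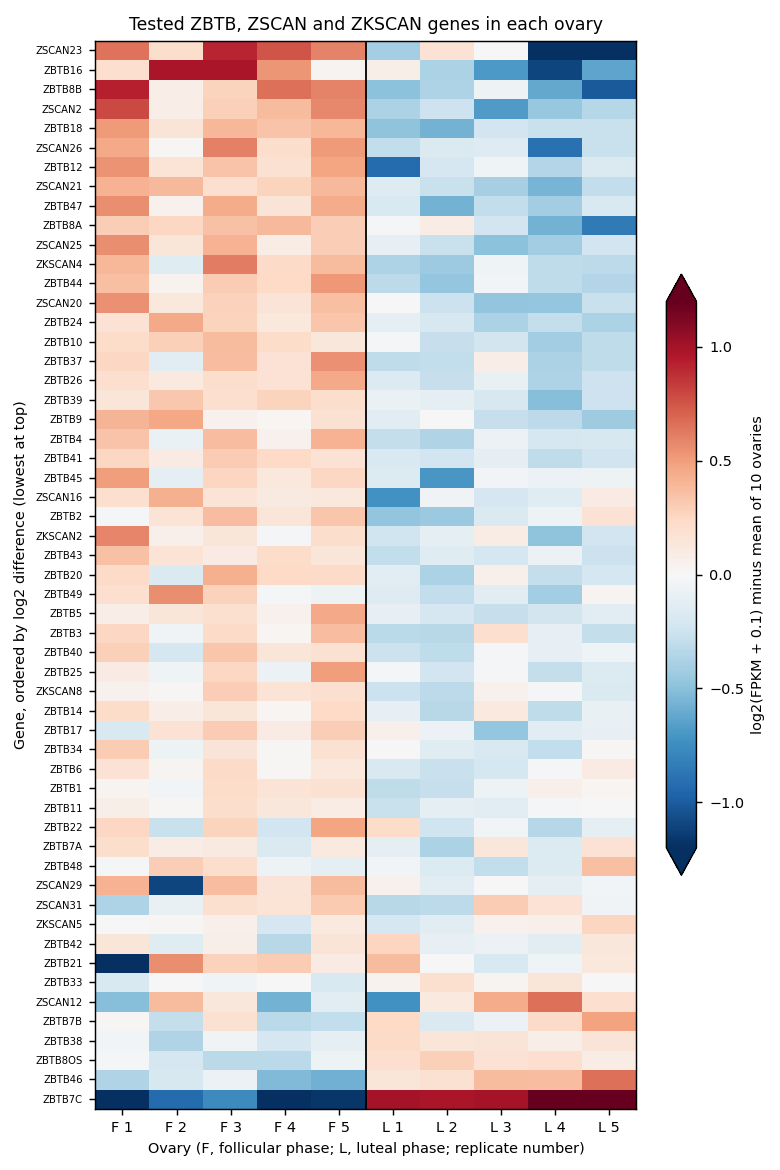
Each row is 1 of the 55 tested genes, ordered by log2 difference, and each column is an ovary (F, follicular; L, luteal); colour is log2(FPKM + 0.1) minus the mean of the gene over the 10 ovaries, with the scale cut at 1.2 either way. The upper rows are mostly red in follicular and mostly blue in luteal phase ovaries, the bottom row, ZBTB7C, is the reverse, and single dark cells stand out for ZSCAN29 in follicular phase replicate 2 (2.96 FPKM) and ZBTB21 in follicular phase replicate 1 (0.881 FPKM).

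ZBTB7C changed most of all the members. It is a BTB zinc finger protein related to ZBTB7A and is known from studies of fatty acid synthase transcription. In the follicular phase its FPKM was 0.964, 1.23, 1.39, 0.763 and 1.02 in replicates 1 to 5, and in the luteal phase it was 4.95, 4.87, 4.95, 6.16 and 6.34. Every luteal phase ovary was far above every follicular phase ovary. The log2 difference was 2.26 (SE 0.16, limma adjusted p = 2.47e-06), a 4.78-fold higher level on the log2(FPKM + 0.1) scale. Its closest relatives by name were not called. ZBTB7A (LRF), known for silencing of fetal globin genes, was at 3.07, 2.82, 2.86, 2.34 and 2.89 in the follicular phase and at 2.44, 2.01, 2.92, 2.36 and 2.99 in the luteal phase, a log2 difference of -0.14 (95% interval -0.43 to 0.16, limma adjusted p = 0.421). ZBTB7B (ThPOK), which directs T cells to the CD4 lineage, was at 5.30, 4.29, 5.97, 4.17 and 4.25 and at 6.22, 4.65, 4.98, 6.19 and 7.39, a log2 difference of 0.29 (95% interval -0.04 to 0.61, adjusted p = 0.140). The phases overlapped for ZBTB7A and for ZBTB7B. ZBTB7C was the least abundant of the 3 in the follicular phase (mean 1.07, against 2.80 and 4.80), while in the luteal phase its mean of 5.46 lay above the 2.54 of ZBTB7A and below the 5.89 of ZBTB7B.

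ZBTB46 was also higher in the luteal phase. This factor marks classical dendritic cells and is present in endothelium. Its FPKM was 2.51, 2.83, 3.09, 2.22 and 2.14 in the follicular phase and 3.60, 3.71, 4.25, 4.24 and 5.20 in the luteal phase, without overlap. The log2 difference was 0.70 (SE 0.14, limma adjusted p = 0.00237). Beside it, 5 of 6 endothelial markers were higher, with log2 differences from -0.24 for CLDN5, which was not called, to 1.59 and a median of 1.06, and the part of endothelium in the level of ZBTB46 was not tested.

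ZBTB38 and ZBTB33 bind methylated DNA, as does ZBTB4. ZBTB38 stood at 19.4, 15.5, 19.2, 17.2 and 18.2 FPKM in the follicular phase and at 23.3, 22.0, 22.0, 20.8 and 22.1 in the luteal phase. The luteal phase ovaries were all above the follicular ones, by a small step, and the log2 difference was 0.30 (SE 0.07, limma adjusted p = 0.00749). With only the most abundant transcript of each gene the call was lost (0.25, adjusted p = 0.266). ZBTB33 (Kaiso) was at 13.0, 14.9, 14.4, 14.8 and 13.1 in the follicular phase and at 15.3, 17.0, 15.2, 16.5 and 14.8 in the luteal phase. Its log2 difference of 0.17 (SE 0.07) did not pass the test (adjusted p = 0.0829), and it was called after quantile normalization (0.21, adjusted p = 0.0495) and on the TPM scale (0.26, adjusted p = 0.00972). With only the most abundant transcript the sign for ZBTB33 turned (-0.88, adjusted p = 0.492). ZBTB4 was lower in the luteal phase, at 6.99 ± 1.04 in the follicular phase and 5.09 ± 0.386 in the luteal phase (SD, n = 5 each), a log2 difference of -0.44 (SE 0.11, adjusted p = 0.00998). That call was lost on the TPM scale and with only the most abundant transcript of each gene.

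ZBTB8OS, which the symbol rule takes in, was at 16.8, 14.8, 13.6, 13.6 and 16.3 FPKM in the follicular phase and at 19.6, 20.8, 19.2, 19.6 and 18.1 in the luteal phase. The log2 difference was 0.38 (SE 0.08, limma adjusted p = 0.00299), and the phases did not overlap. Its neighbours ZBTB8B and ZBTB8A, genuine zinc finger genes, were lower in the luteal phase. ZBTB8B was weakly expressed, at 0.436, 0.196, 0.236, 0.344 and 0.324 in the follicular phase and at 0.0984, 0.116, 0.169, 0.0823 and 0.0394 in the luteal phase. Its log2 difference was -1.02 (SE 0.24, adjusted p = 0.00531), which understates the change because its values are close to the added 0.1. ZBTB8A, at 2.77 ± 0.108 and 1.80 ± 0.487, had a log2 difference of -0.63 (SE 0.18, adjusted p = 0.0132).

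**Figure D3:**
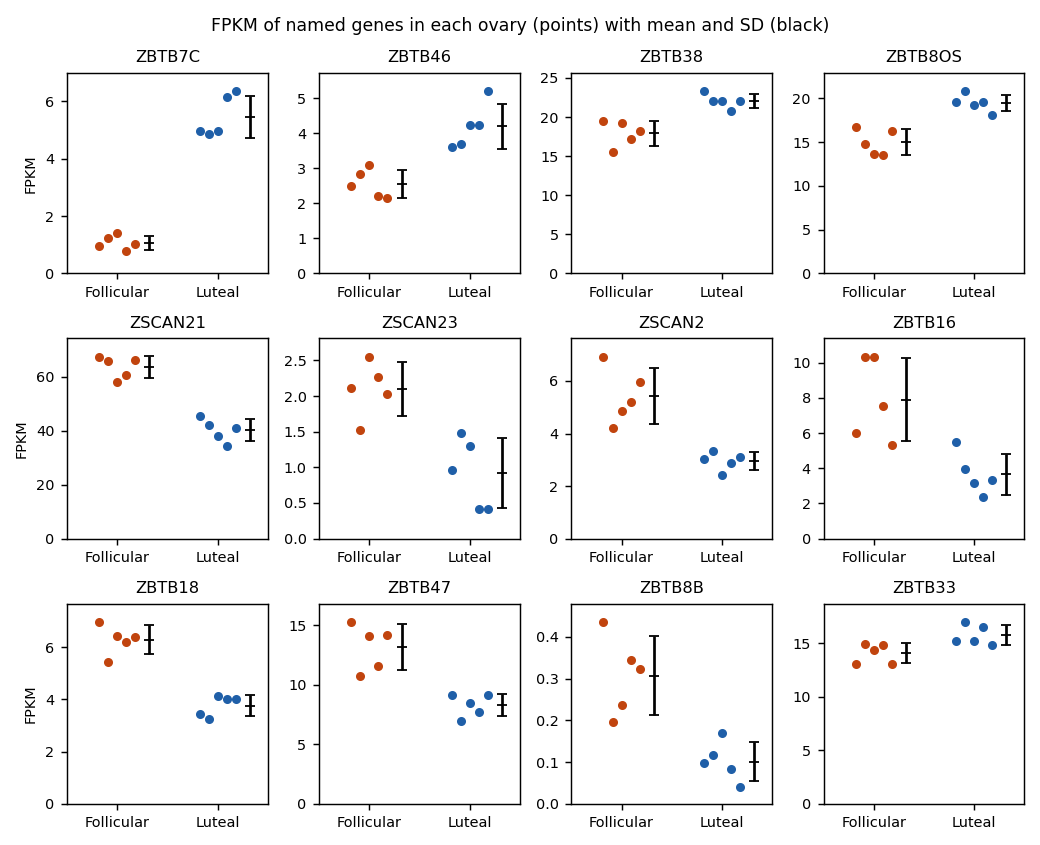
FPKM (y axis, from 0) of 12 genes in each follicular and luteal phase ovary (points), with the mean and SD of the phase in black. The luteal points lie above all follicular points for ZBTB7C, ZBTB46, ZBTB38 and ZBTB8OS and below them for ZSCAN21, ZSCAN23, ZSCAN2, ZBTB18, ZBTB47 and ZBTB8B, while the phases overlap for ZBTB16 and ZBTB33.

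Among the genes that were lower in the luteal phase, ZSCAN23 had the largest log2 difference with the pseudocount of 0.1, while ZBTB8B led with 0.01 (-1.58, against -1.36 for ZSCAN23) and ZBTB16 with 1 (-0.93, against -0.72). Its FPKM was 2.11, 1.52, 2.55, 2.27 and 2.02 in the follicular phase and 0.958, 1.48, 1.30, 0.420 and 0.414 in the luteal phase. The luteal phase ovaries varied among themselves, with replicates 4 and 5 lowest and replicate 2 just under the lowest follicular phase ovary. The log2 difference was -1.25 (SE 0.32, limma adjusted p = 0.00961).

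ZBTB16 (PLZF), a repressor that responds to glucocorticoid and progesterone and maintains spermatogonial stem cells, was also lower. In the follicular phase it stood at 5.99, 10.4, 10.3, 7.53 and 5.31 FPKM, and in the luteal phase at 5.47, 3.96, 3.18, 2.36 and 3.32. Luteal phase replicate 1 lay above follicular phase replicate 5, so the phases overlapped by that pair. The log2 difference was -1.09 (SE 0.24, limma adjusted p = 0.00403). With the most abundant transcript the call was lost and the sign turned (2.42, adjusted p = 0.127).

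ZSCAN21 was by far the most abundant gene of the 59, with a mean of 52.0 FPKM over the 10 ovaries, against 20.0 for ZBTB38, the next. It was at 67.5, 66.0, 58.2, 60.8 and 66.4 in the follicular phase and at 45.5, 42.1, 38.2, 34.3 and 41.1 in the luteal phase. The phases were well apart, with a log2 difference of -0.67 (SE 0.08, limma adjusted p = 0.000114). ZSCAN2 was at 6.93, 4.21, 4.85, 5.19 and 5.96 and at 3.02, 3.33, 2.43, 2.87 and 3.10, a log2 difference of -0.84 (SE 0.14, adjusted p = 0.000857). ZSCAN26 was at 6.05, 4.42, 6.72, 5.11 and 6.32 and at 3.55, 3.88, 3.94, 2.31 and 3.62 (log2 difference -0.72, SE 0.17, adjusted p = 0.00513). Neither of these overlapped between the phases, and the call for ZSCAN26 was lost with the most abundant transcript (-0.48, adjusted p = 0.0918). ZSCAN20 (-0.58) and ZSCAN25 (-0.60) were lower as well. The call for ZSCAN20 was lost with the most abundant transcript, where the difference was larger (-0.86, adjusted p = 0.408). ZSCAN12, ZSCAN16, ZSCAN29 and ZSCAN31 were not called, with log2 differences from -0.41 for ZSCAN16 to 0.28 for ZSCAN12. For ZSCAN16 (adjusted p = 0.0683) the phases did not overlap, though its highest luteal value of 1.346 was next to its lowest follicular value of 1.352. The small difference of ZSCAN29 (-0.09, adjusted p = 0.793) rested on follicular phase replicate 2, at 2.96 where the other follicular phase ovaries had 7.25 to 8.69. Without that ovary ZSCAN29 was lower (-0.38, adjusted p = 0.00540), and without follicular phase replicate 1 its sign turned (0.0039).

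ZBTB18 (RP58), a repressor best known from neuron development, was at 6.97, 5.43, 6.43, 6.19 and 6.41 FPKM in the follicular phase and at 3.44, 3.24, 4.12, 4.01 and 4.01 in the luteal phase. Its log2 difference of -0.73 had a small error (SE 0.11, limma adjusted p = 0.000329). ZBTB47 stood at 15.3, 10.7, 14.1, 11.6 and 14.2 and at 9.14, 6.98, 8.43, 7.74 and 9.11 (log2 difference -0.66, SE 0.12, adjusted p = 0.00117), a call that was lost with the most abundant transcript (-0.52, adjusted p = 0.262). ZBTB12 was at 2.04, 1.55, 1.77, 1.57 and 1.94 and at 0.678, 1.18, 1.32, 1.05 and 1.21 (log2 difference -0.68, SE 0.18, adjusted p = 0.00984). Luteal and follicular values were separate for each of these 3 genes.

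ZBTB20, known as a repressor of alpha-fetoprotein in liver, was at 15.5, 11.7, 17.8, 15.7 and 15.5 FPKM in the follicular phase and at 12.0, 10.1, 13.8, 10.8 and 11.4 in the luteal phase. Follicular phase replicate 2 fell within the luteal range. The log2 difference was -0.38 (SE 0.12, limma adjusted p = 0.0213), and the call was lost on the TPM scale (-0.29, adjusted p = 0.128) and without follicular phase replicate 3 (adjusted p = 0.0527), luteal phase replicate 2 (0.0506) or luteal phase replicate 4 (0.0516). The remaining lower ZBTB genes were ZBTB2, ZBTB5, ZBTB9, ZBTB10, ZBTB11, ZBTB24, ZBTB26, ZBTB37, ZBTB39, ZBTB41, ZBTB43 and ZBTB44. Their log2 differences ran from -0.59 for ZBTB44 to -0.21 for ZBTB11. ZBTB24, the gene of a form of immunodeficiency with centromeric instability, was at 6.72 ± 0.617 and 4.57 ± 0.386 (log2 difference -0.54, adjusted p = 0.00115). With the most abundant transcript the calls for ZBTB5, ZBTB26, ZBTB37 and ZBTB39 were lost, those for ZBTB5 and ZBTB37 also on the TPM scale. For ZBTB37 the log2 difference with that transcript was not smaller (-0.52, against -0.48 with sums). The calls for ZBTB2, ZBTB11 and ZKSCAN8 were the least stable, since all 3 were lost on the TPM scale, with quantile normalization and with the common median.

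Of the ZKSCAN genes, ZKSCAN4 was at 4.32 ± 0.815 in the follicular phase and 2.80 ± 0.303 in the luteal phase (log2 difference -0.59, SE 0.14, limma adjusted p = 0.00699), and ZKSCAN8 at 6.33 ± 0.498 and 5.18 ± 0.568 (-0.29, SE 0.10, adjusted p = 0.0368). ZKSCAN2 had a log2 difference of -0.39 (adjusted p = 0.0579) and ZKSCAN5 of 0.01 (adjusted p = 0.962), and neither was called.

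The other genes that did not pass the test were ZBTB1, ZBTB3, ZBTB6, ZBTB14, ZBTB17, ZBTB21, ZBTB22, ZBTB25, ZBTB34, ZBTB40, ZBTB42, ZBTB45, ZBTB48 and ZBTB49. Their log2 differences ran from -0.41 for ZBTB45 to 0.11 for ZBTB21. The sign for ZBTB21 turned (-0.26, adjusted p = 0.192) without follicular phase replicate 1, at 0.881 where the other follicular phase ovaries had 2.86 to 3.99. ZBTB17 (MIZ-1), the DNA-binding partner of MYC, was at 5.90, 7.57, 8.33, 7.20 and 8.27 FPKM in the follicular phase and at 6.97, 6.38, 4.83, 6.14 and 6.28 in the luteal phase. Follicular phase replicate 1 lay within the luteal range, and the log2 difference of -0.28 (SE 0.12) had a limma adjusted p of 0.0870, which became 0.0318 without that ovary. ZBTB1, which is needed for lymphocyte development, was at 15.6, 14.8, 17.7, 17.0 and 17.2 and at 12.3, 12.5, 14.6, 15.9 and 15.5, with overlapping phases (log2 difference -0.22, SE 0.09, adjusted p = 0.0693).

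The ranks of single ovaries were uneven over these genes, though no ovary was the lowest or highest of its phase for all of them. Among follicular phase ovaries, replicate 2 was the lowest for 26 of the 55 genes and replicate 4 for 16, while replicates 1 and 3 were each the highest for 16. In the luteal phase, replicates 2 and 4 were the lowest for 16 and 15 genes and replicate 3 the highest for 18. Leaving out each ovary in turn gave from 24 to 31 lower genes (43.6% to 56.4%, against 21.9% to 29.4% of all genes) and 4 higher genes in each of the 10 fits (13.7% to 16.4% of all genes). The highest count, 31, came without follicular phase replicate 2, and the lowest without follicular phase replicate 3 or luteal phase replicate 2. Some genes that were not called passed the test without 1 ovary. Without follicular phase replicate 2 these were ZBTB1 (adjusted p = 0.0423), ZBTB40 (0.00831) and ZBTB45 (0.0431), besides ZSCAN29. Without luteal phase replicate 3 they were ZBTB14 (0.0332) and ZKSCAN2 (0.0359), and without luteal phase replicate 5 ZBTB6 (0.0405) and ZSCAN16 (0.0495). ZBTB49 passed without follicular phase replicate 4 (0.0475) or 5 (0.0398). The differences of ZBTB42 and ZKSCAN5, close to 0, changed sign, ZBTB42 without follicular phase replicate 4 or luteal phase replicate 1 and ZKSCAN5 without follicular phase replicate 4 or luteal phase replicate 3, 4 or 5. The call for ZBTB2 was lost in 8 of the 10 fits (all but those without follicular phase replicate 1 or luteal phase replicate 5), for ZBTB11 in 7 (all but those without follicular phase replicate 2 or luteal phase replicate 4 or 5) and for ZKSCAN8 in 6 (without follicular phase replicate 3, 4 or 5 or luteal phase replicate 1, 2 or 5).

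The table splits the 59 genes into 163 transcripts, of which 131 passed the same filter and were tested among all 32842 transcripts. Of these, 20 were lower in the luteal phase (15.3%, against 9.82% of all transcripts tested) and 5 were higher (3.82%, against 7.47%). In both directions 25 transcripts were called (19.1%, against 17.3% of all transcripts), a share close to that of all transcripts. On the TPM scale 13 were called (9.92%, against 14.0%). The count also fell to 11 without luteal phase replicate 4 (8.66%, against 12.5%) and to 11 without luteal phase replicate 5 (8.53%, against 13.2%). It was 12 without follicular phase replicate 5, 13 without follicular phase replicate 1 or luteal phase replicate 2, and 14 without follicular phase replicate 3 or 4, where between 13.7% and 14.9% of all transcripts were called. A single transcript is listed for 20 of the genes, and up to 15 (ZBTB20) for the others. Among the 21 called genes with several transcripts, 11 had a transcript called in the same direction.

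Of the ZBTB7C transcripts, XM_018039559.1 had the largest difference. Its FPKM was between 0.0728 and 0.753 in the follicular phase and between 3.45 and 4.77 in the luteal phase, a log2 difference of 3.45 (SE 0.40, limma adjusted p = 0.000363). Its share of the summed ZBTB7C level was 32.6% in the follicular phase and 75.8% in the luteal phase. The transcript XM_018039557.1, which held 61.7% in the follicular phase, had a log2 difference of 0.58 (adjusted p = 0.228). In ZSCAN21 the main transcripts moved alike, XM_018039892.1 by -0.67 (adjusted p = 0.000232) and XM_018039895.1 by -0.66 (adjusted p = 0.00505), and their shares of the phase means were 42.7% and 42.6% for the first and 53.5% and 54.0% for the second, in the follicular and luteal phase.

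Of the ZBTB38 transcripts XM_005675497.3 was called, at 2.19 ± 0.566 in the follicular phase and 4.79 ± 0.846 in the luteal phase (SD, n = 5 each; log2 difference 1.12, limma adjusted p = 0.00525). In ZBTB20 the called transcript was XM_018039867.1, the most abundant, with a log2 difference of -0.82 (adjusted p = 0.0286). A transcript of ZBTB40 (XM_013974530.2, -1.05, adjusted p = 0.0420) and one of ZBTB45 (XM_018063537.1, -0.78, adjusted p = 0.0362) were lower although neither gene was called.

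ZBTB16 and ZBTB33 show how far the division among transcripts varied between ovaries of 1 phase. In luteal phase replicates 2 to 5, XM_018058854.1 of ZBTB16 was at 3.96, 3.18, 2.36 and 3.32 FPKM, while XM_018058856.1 was listed at 0 and XM_018058857.1 at no more than 0.00522. In the follicular phase XM_018058854.1 was at 6.66 and 4.32 in replicates 2 and 4 and at no more than 0.0665 in the other 3 ovaries. In those 3, XM_018058857.1 ran from 1.53 to 4.71. The 1.53 was in replicate 3, where XM_018058856.1 was the largest at 8.26. XM_018058856.1 was also at 3.12 in follicular phase replicate 2, and it fell below the filter. The fit of XM_018058854.1 alone gave a log2 difference of 2.42 (SE 1.15, limma adjusted p = 0.179), opposite in sign to the summed gene. For ZBTB33, XM_005700334.2 was at 12.3 and 12.7 in follicular phase replicates 2 and 4 and between 12.6 and 15.9 in luteal phase replicates 2, 3 and 4, but at no more than 0.00324 in the other 5 ovaries, where XM_018044171.1 held 13.0 to 15.3. The sum of the ZBTB33 transcripts nevertheless stayed between 13.0 and 17.0 in all 10 ovaries. How reads shared by transcripts were divided among them in each library was not tested, and the gene results given here use the sums.

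**Figure D4:**
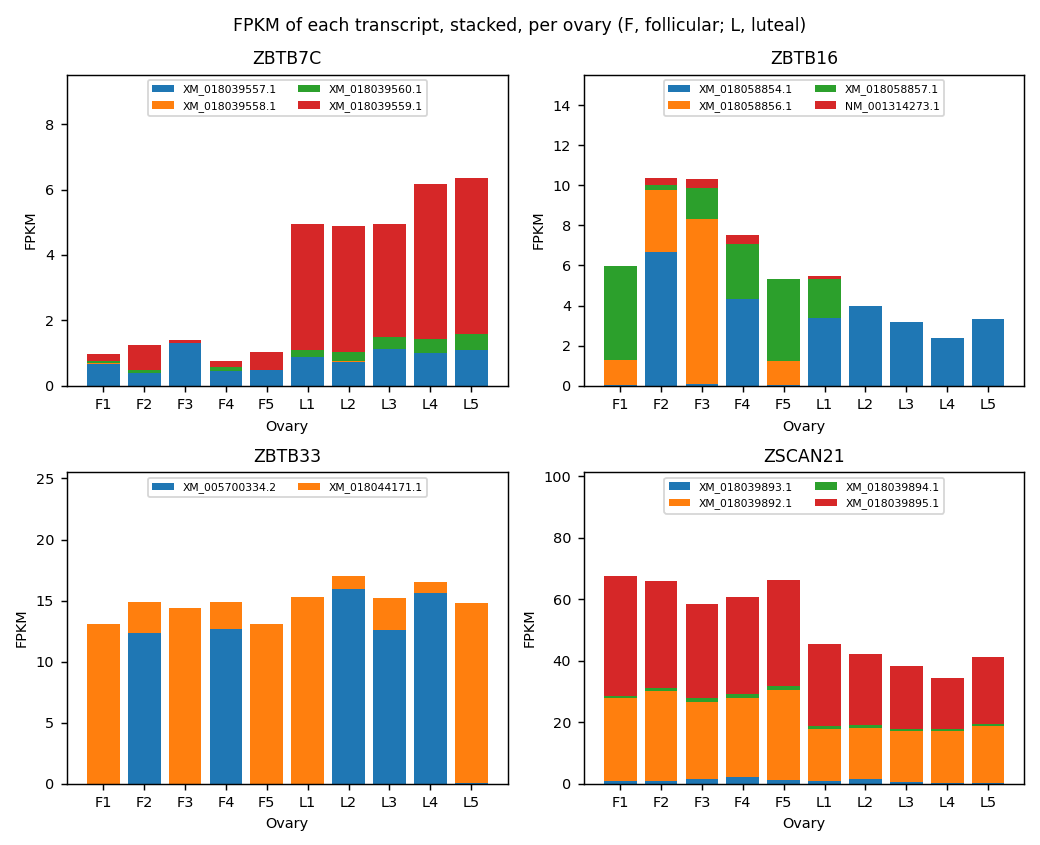
FPKM of each transcript (colours), stacked, in each ovary (x axis; F, follicular; L, luteal) for ZBTB7C, ZBTB16, ZBTB33 and ZSCAN21. XM_018039559.1 (red) makes up most of ZBTB7C in luteal phase ovaries, the ZBTB33 total stays between 13.0 and 17.0 while its colours exchange between ovaries of 1 phase, and in ZSCAN21 XM_018039895.1 (red) is the larger of the main transcripts in every ovary but luteal phase replicate 4 (16.7 against 17.1).

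By gene order on goat assembly ARS1.2 (RefSeq annotation), in which all 59 genes were found, 19 of them lie in 6 runs with no more than 3 other protein-coding genes between neighbours. The build behind the deposited values is not named, so the annotation serves only for gene order. The longest run holds ZSCAN16, ZKSCAN8, ZSCAN9, ZKSCAN4, ZSCAN26, ZSCAN31, ZSCAN12 and ZSCAN23 within 12 protein-coding genes. Of the 7 tested genes of that run 4 were lower in the luteal phase, beside 27.8% of all genes, and their log2 differences were spread from -1.25 for ZSCAN23 to 0.28 for ZSCAN12, its direct neighbour. ZBTB8B, ZBTB8A and ZBTB8OS, which also adjoin, went both ways. ZBTB6 (-0.23) and ZBTB26 (-0.46) adjoin, as do ZBTB43 (-0.39) and ZBTB34 (-0.24), with the second member of the first pair and the first of the second called. ZSCAN25 (-0.60, called) and ZKSCAN5 (0.01) form the last of these runs beside ZBTB1 and ZBTB25, whose gene models overlap in the annotation. The libraries were strand-specific, but whether the quantification used strand is not given in the sources used here, so the values of that overlapping pair are uncertain.

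Genes of the same protein families that carry other symbols were examined in the same fit. Of 16 tested SCAN zinc finger genes 9 were lower in the luteal phase and 1 was higher, with a median log2 difference of -0.41, where 27.8% of all genes were lower and 15.9% higher, with a median of -0.14. The largest differences were those of ZNF483 (2.73 ± 0.729 and 1.17 ± 0.213 FPKM; log2 difference -1.12, SE 0.21, limma adjusted p = 0.00168), the imprinted gene PEG3 (7.63 ± 0.928 and 4.93 ± 1.39; -0.65, SE 0.17, adjusted p = 0.00885) and ZNF263 (5.79 ± 0.581 and 3.90 ± 0.513; -0.56, SE 0.11, adjusted p = 0.00252). The gene that was higher was ZNF24 (0.18, adjusted p = 0.0315). Of 8 BTB zinc finger genes 2 were lower and 1 was higher, with a median of -0.28, shares near those of all genes. GZF1 (-0.60, adjusted p = 0.000760) and MYNN (-0.35, adjusted p = 0.000698) were lower. BCL6B, a relative of the lymphocyte repressor BCL6, was higher, at 2.00 ± 0.249 and 3.76 ± 0.511 (log2 difference 0.88, SE 0.13, adjusted p = 0.000384). BCL6 itself was not called (-0.40, adjusted p = 0.0830).

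Genes of corepressors, and of other proteins that work with them or with BTB domains, were measured as well. Of 10 tested genes of this list 8 were lower in the luteal phase and 1 was higher. The median log2 difference was -0.31, beside the same 27.8%, 15.9% and -0.14 for all genes. CUL3, a ubiquitin ligase scaffold and not a corepressor, was among the lower genes (-0.29, limma adjusted p = 0.00142). TRIM28, the partner of KRAB domains, was at 55.5 ± 6.81 FPKM in the follicular phase and 34.3 ± 3.55 in the luteal phase (SD, n = 5 each), a log2 difference of -0.69 (SE 0.10, limma adjusted p = 0.000320). BCORL1 (-0.53, adjusted p = 0.0460) and SIN3A, a scaffold of histone deacetylases (-0.51, adjusted p = 0.00321), had the next largest differences. The gene that was higher was HDAC3, a histone deacetylase, at 27.6 ± 1.91 and 33.7 ± 2.21 (log2 difference 0.29, adjusted p = 0.00686).

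Other scalings of the libraries gave fewer lower genes. With the common median 25 of the 28 lower genes were still called (45.5% of those tested, against 19.9% of all genes). Quantile normalization left 25 as well (45.5%, against 24.4%), and the TPM scale left 21 (38.2%, against 17.0%). On the TPM scale 26 of the 55 genes and 35.8% of all genes were called in either direction, and 18.8% of all genes were higher. The 4 higher genes were called in each of these 3 scalings. With the most abundant transcript of each gene in place of the sum, 20 genes were called, against 32.3% of all genes, and 17 were lower (30.9%, against 19.4%), of which 16 were among the 28.

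**Figure D5:**
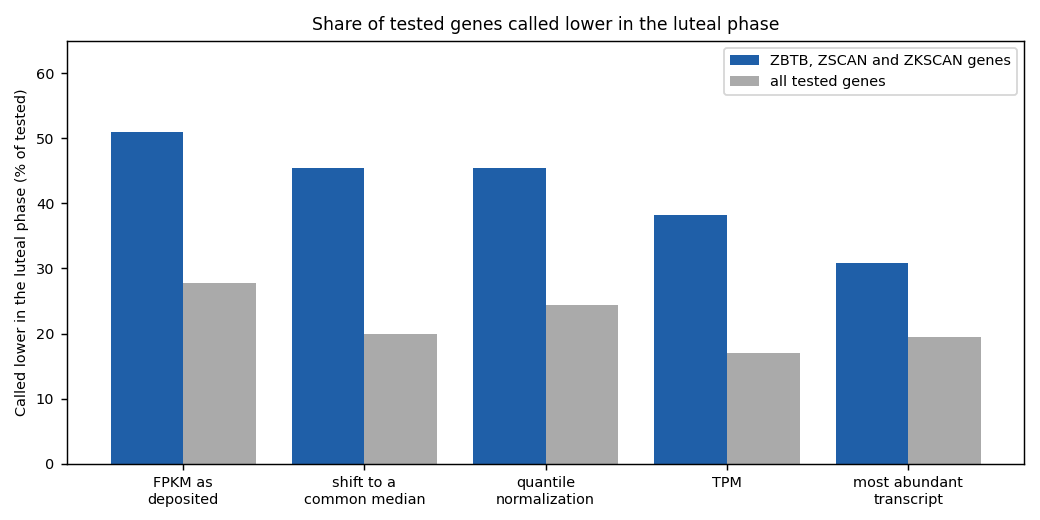
Share of tested genes called lower in the luteal phase (y axis, percent, from 0) for the ZBTB, ZSCAN and ZKSCAN genes (blue) and for all tested genes (grey) under 5 ways of computing the values. The blue bar is the taller in each pair, from 50.9% against 27.8% for FPKM as deposited to 30.9% against 19.4% with the most abundant transcript.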

How the data were processed

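The authors mapped reads with HISAT2, built transcripts with StringTie and computed the deposited FPKM of each transcript and ovary with Cuffdiff. The genome build is not given in the sources used here. FPKM of protein-coding transcripts was summed by gene symbol, taken as log2(FPKM + 0.1) and fitted with limma 3.58.1 under R 4.3.3 (lmFit and eBayes, trend on). Genes needed 0.1 FPKM in 5 ovaries, and transcripts were fitted alike. In data simulated for the gene comparison (15230 genes tested), 75.5% of 2-fold and 94.6% of 4-fold changes were recovered. Of the calls made there, 3.57% were false. The simulation drew noise independently for each gene and changed far fewer genes than were called here. It held no changes under 2-fold, so recovery of smaller differences is unknown.

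Members and lists were chosen with earlier results of these data known, and the ZNF genes were added after values were seen. Values in every ovary are given for called genes whose phases did not overlap (up to 8 per direction, by size of the difference), the 4 most abundant genes and 8 genes with well-known roles, and up to 3 called genes are named per related list. Other named values, among them those of ZNF24, HDAC3, BCL6, CLDN5 and the transcripts, were chosen after they were seen. CYP11A1 was matched as LOC102173131 through a RefSeq synonym, and listed symbols without a match were not analysed here. One gene of the corepressor list is not reported here and was left out of its counts. The fit was repeated with a pseudocount of 1 or 0.01, without a filter or with 0.5 FPKM as its minimum, under 3 scalings, with eBayes without trend, with a replicate block, with the most abundant transcript, with the mRNA table, and without each ovary.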

Additional observations from a re-analysis of the deposited data

Results flagged for a closer look

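In 6 of 110 groups of 5 ovaries, 1 ovary lay far from the other 4 by Dixon's test, about the 1 in 20 that chance gives. ZSCAN29 was at 2.96 FPKM in follicular phase replicate 2, against 7.25 to 8.69 in the other follicular phase ovaries. ZSCAN26 was at 2.31 in luteal phase replicate 4, against 3.55 to 3.94. ZBTB37 was at 4.69 in luteal phase replicate 3, against 3.39 to 3.60, and ZBTB45 at 0.610 in luteal phase replicate 2, against 0.924 to 1.02. ZBTB26 was at 7.00 in follicular phase replicate 5, against 5.52 to 5.91. ZSCAN16 was at 1.71 in follicular phase replicate 2, against 1.35 to 1.45.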

How the results depend on the processing

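Of the 28 genes lower in the luteal phase, 14 were called under every alternative, as were ZBTB7C, ZBTB46 and ZBTB8OS of the 4 higher genes. ZBTB8B kept its call wherever it was tested but fell below the filter with a minimum FPKM of 0.5. With the most abundant transcript of each gene, 17 genes were lower and 20 were called in all, against 28 and 32 with sums. The log2 difference reversed for ZBTB16 (2.42, adjusted p = 0.127) and ZBTB33 (-0.88, adjusted p = 0.492). It also reversed for ZSCAN31 (0.25, against -0.08 with sums). By construction this fit leaves out the other transcripts. The median log2 difference of the 55 genes was -0.25 with a pseudocount of 1, against -0.38, since a larger pseudocount shrinks differences of low genes. On the TPM scale 12 of the related genes were lower, against 19, where 17.0% of all genes were lower, against 27.8%, and 13 transcripts were called, against 25, where 14.0% of all transcripts were called, against 17.3%; the cause was not tested. Leaving out each ovary in turn gave from 11 to 24 called transcripts (8.53% to 18.9% of those tested, against 12.5% to 17.3% of all transcripts), with 11 without luteal phase replicate 4 or 5, 12 without follicular phase replicate 5, 13 without follicular phase replicate 1 or luteal phase replicate 2 and 14 without follicular phase replicate 3 or 4. With the replicate block, 34 genes were called (45.7% of all genes), ZBTB1 and ZBTB40 in addition, and 16 transcripts (13.6% of all transcripts). The labels do not say whether ovaries of equal number are related. The correlations of their deviations from the phase means ran from 0.0258 to 0.199 over 5 pairs. Pairs of unequal number ran from -0.245 to 0.224, and 5 of 10 ovaries correlated best with their own number. The depth behind each value is unknown, and the lowest genes rest on values near the filter.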
